A study of Drosophila melanogaster with 6 samples.

Results

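Neural stem cells (NSCs) of the Drosophila larval brain change the genes they express as they age, and 8 genes of that series are described here: svp, chinmo, br, Imp, Syp, Eip93F, mamo and lin-28. They were chosen by name from what is known of the series, as 8 of 17684 annotated genes on the 6 chromosome arms (2L, 2R, 3L, 3R, 4 and X), and each DamID peak that overlapped a gene span or the 1 kb beyond either end was assigned to it. Young NSCs are known to hold the RNA-binding proteins Imp and Lin-28 and the BTB zinc finger factor Chinmo, and old ones the RNA-binding protein Syp, the BTB zinc finger factor Broad (br) and the ecdysone-induced factor Eip93F. Imp and Syp oppose each other, and between them they set the level of Chinmo and, through it, of the BTB zinc finger factor Mamo in the neurons made at each stage. The nuclear receptor Seven-up (svp) acts as a switching factor that lets the NSC move on, and ecdysone signalling takes part in the later steps.

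The study fused the microproteins Simba2 and Simba1 to the bacterial adenine methylase Dam, which methylates GATC sequences near the place where the fusion protein sits, so that methylated DNA can be amplified and sequenced. The groups were UAS-Dam-Simba2, UAS-Dam-Simba1 and UAS-Dam alone, sequenced in 2 batches that each held 1 sample per group (6 samples). All 3 groups carried the NSC driver grh-Gal4 and tub-Gal80ts, a ubiquitous temperature-sensitive repressor of Gal4. Per the labels, embryos of a 4 h collection were kept at 18 °C for 44 h until hatching and then at 29 °C for 24 h, and brains were dissected. The values therefore come from larvae held for 24 h at the permissive temperature, from whole brains in which the driver limits the fusion protein to grh-Gal4 cells, and they record where DNA was methylated, not which genes were expressed. Each fusion library had a list of peaks called against the Dam library of its own batch, so Dam alone has no list and enters each value as its background, and the Simba2 and Simba1 lists of a batch share that background.

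The fusion libraries held 1069703 to 1506081 reads after removal of duplicates and their lists 16837 to 33465 peaks on the arms, so density is given below both as peaks per 10 kb and relative to the mean of the same list over the arms (1.62 and 2.50 peaks per 10 kb in Simba2 batches 1 and 2, 1.26 and 1.49 in Simba1 batches 1 and 2). No q limit had been applied to the lists. Simba1 batch 2 stood apart from the other libraries: 42.0% of its peaks had a q of 0.05 or lower, against 53.4 to 60.5% in the others, and its median peak length was 382 bp, against 420 to 427 bp. With 2 libraries a group, the smallest p that an exact two-sided permutation test of Simba2 against Simba1 can give is 0.333, so no such test could pass 0.05. Nothing in the labels says that the 2 batches were separate crosses, so these p-values measure only the spread between libraries. NSC genes such as dpn, wor and mira cannot serve as a check of cell type here, since peaks do not measure expression. Among the 6 NSC markers 1 had a peak of q 0.05 or lower in all 4 libraries, among the 5 neuronal markers 5, and among the 5 glial markers 0, where 11.5% of all genes and 57.9% of those of 10 kb or more did. The lists differ in gene length, with 2 NSC, 4 neuronal and 0 glial markers of 10 kb or more.

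All 8 genes had at least 1 peak in all 4 libraries, and 329 peaks of the 4 lists were assigned to them. Of all genes on the arms 24.1% had a peak in all 4 libraries, and of the 2033 genes of 10 kb or more 82.2% had one. Since 7 of the 8 members are of that length, their count lay near what long genes in general show. With a q of 0.05 or lower required in every library 6 members remained (lin-28, Syp, br, Eip93F, mamo and svp), against 11.5% of all genes. Of the 7 members of 10 kb or more 5 remained, against 57.9% of all genes of that length. These 7 span 36.4 to 144 kb, so that share is not matched for length. The missing members were Imp and chinmo, both early, whose peaks in Simba1 batch 2 were all above that q. At a q of 0.001 or lower the members with a peak in every library were Syp, br and mamo. Only 11 of the 329 peaks reached a 1 kb flank but not the gene span, and 14 further peaks lay between 1 and 2 kb from a gene and were not assigned.

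**Figure D1:**
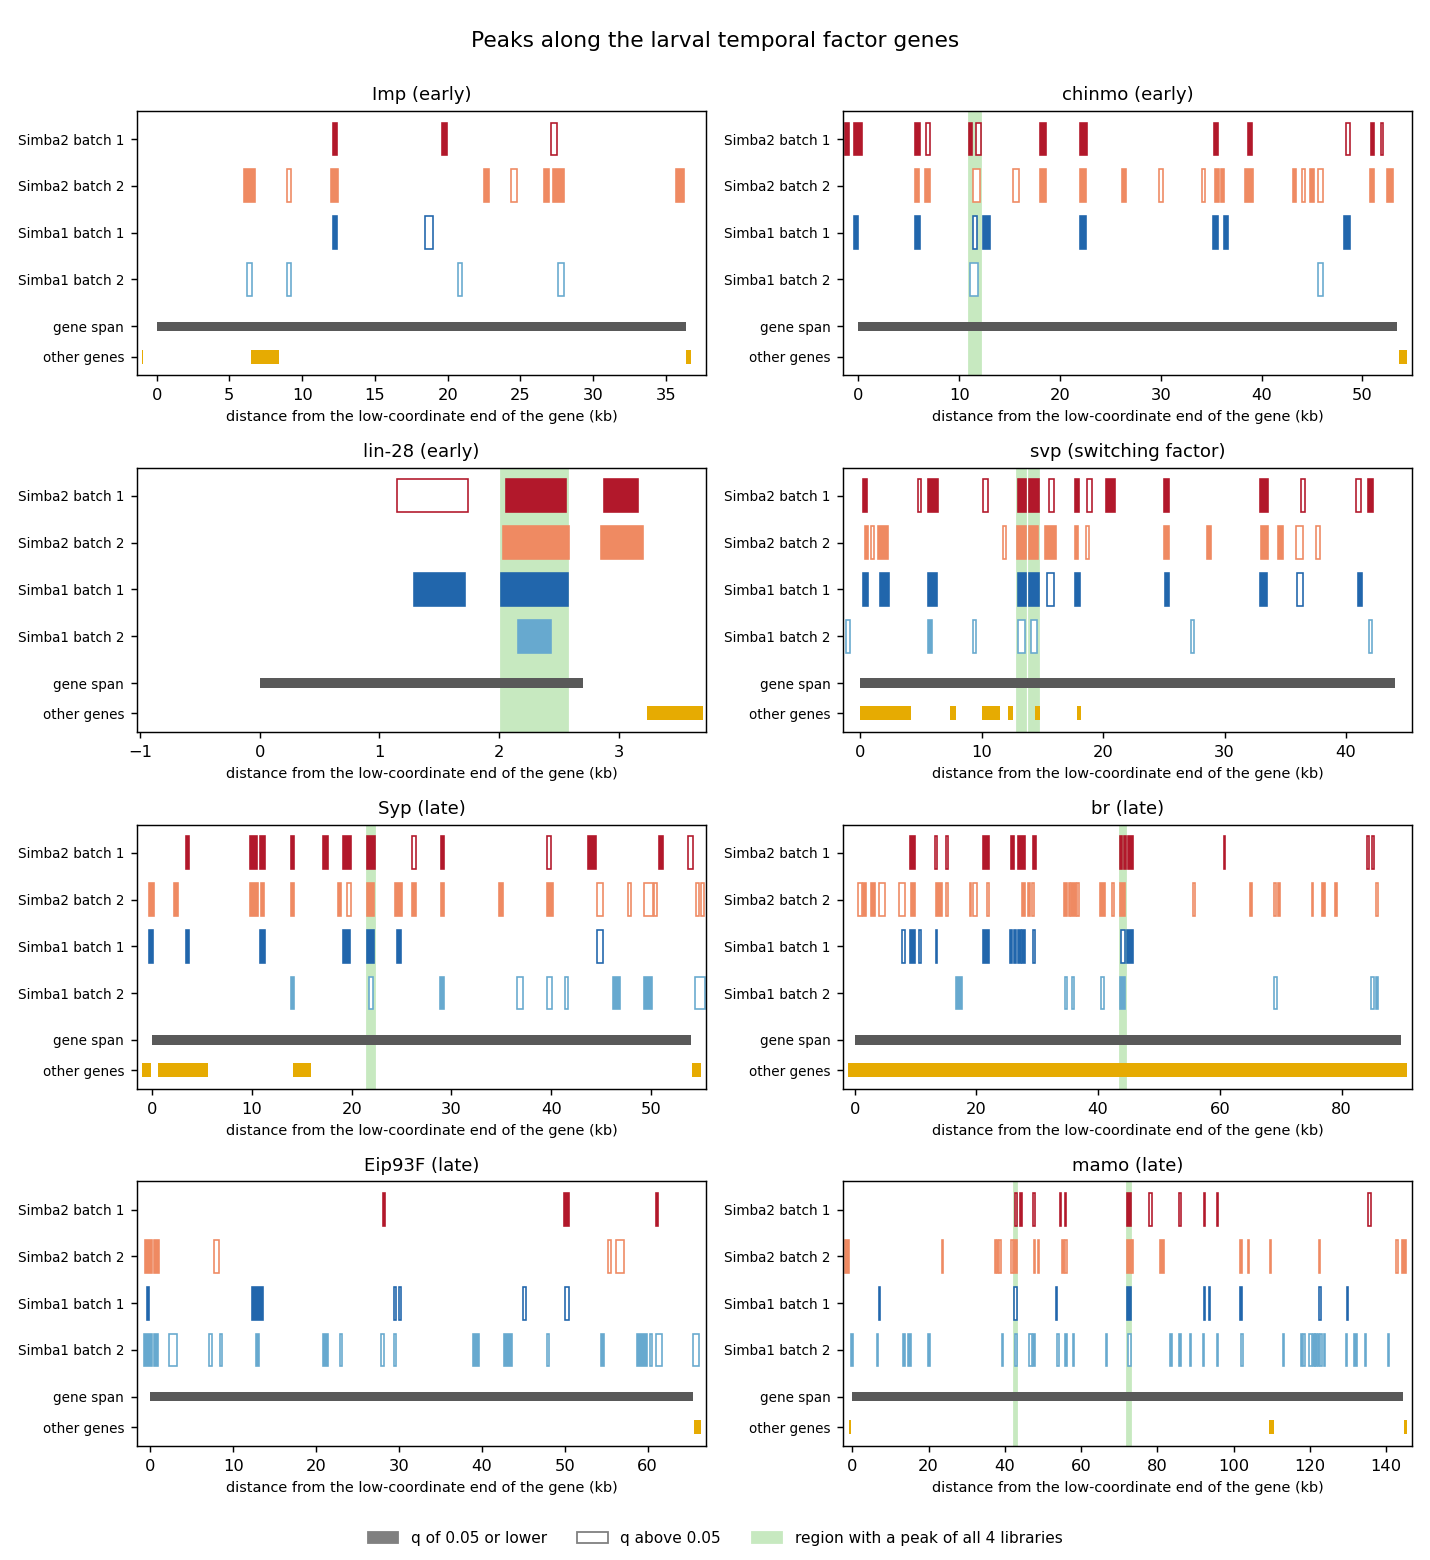
Peaks of the 4 libraries along each gene, by distance in kb from the end of the gene with the lower coordinate. Filled boxes have a q of 0.05 or lower, grey bars are gene spans, yellow bars other genes within 1 kb, and green bands the 8 regions with a peak of all 4 libraries. Simba1 batch 2 has 18 peaks at Eip93F and 33 at mamo but 2 at chinmo.

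Imp (X, 10787869 to 10824277, a span of 36.4 kb) encodes the RNA-binding protein that marks young NSCs, and it carried few peaks. It had 3 and 8 peaks in Simba2 batches 1 and 2, against 2 and 4 peaks in Simba1 batches 1 and 2. Its relative density was 0.481 and 0.833 in the Simba2 libraries, against 0.414 and 0.697 in the Simba1 libraries. Imp thus lay below the arm mean in all 4 libraries. No region at Imp had a peak of all 4 libraries. The 2 regions that lacked a single library lay 12 to 12.5 kb from the low-coordinate end (without Simba1 batch 2) and 27.1 to 28.0 kb from it (without Simba1 batch 1). The strongest peak, 4.13-fold over background in Simba2 batch 2 (10793874 to 10794607), reached the nested gene lncRNA:CR45204, so it cannot be assigned to Imp alone.

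chinmo (2L, 1651258 to 1704682, 53.4 kb), the early factor that Imp and Syp regulate through its RNA, had 13 and 18 peaks in the Simba2 libraries, against 8 and 2 in the Simba1 libraries. Simba2 had more peaks than Simba1 in both batches, as at 44.5% of genes of 10 kb or more (18.5% with lists of equal length). Means were 15.5 ± 3.54 peaks in the Simba2 libraries and 5 ± 4.24 peaks in the Simba1 libraries (SD, n = 2, exact two-sided permutation p = 0.333). Relative density was 1.45 and 1.30 in the Simba2 libraries, against 1.15 and 0.242 in the Simba1 libraries, so 3 of 4 libraries lay above the arm mean and Simba1 batch 2 well below it. With lists cut to equal length the counts were 12 and 11 for Simba2, against 8 and 2 for Simba1. Peaks occurred throughout the gene. In batch 1 they also lay at its low-coordinate end. The best Simba2 peak there (1649907 to 1650306), 5.13-fold over background, only reached into the flank, with its summit at -1.15 kb from that end. One region 11 to 12.1 kb into the gene had a peak of all 4 libraries, and 3 more had one in all but Simba1 batch 2.

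lin-28 (3L, 5654681 to 5657384, 2.70 kb) encodes the RNA-binding protein that in other animals blocks maturation of the let-7 microRNA. It had 3 and 2 peaks in the Simba2 libraries, against 2 and 1 in the Simba1 libraries. Relative density was 3.93 and 1.70 in the Simba2 libraries, against 3.38 and 1.42 in the Simba1 libraries. All 4 values lay above the arm mean, but the gene is so short that a single peak adds 2.13 peaks per 10 kb. The best peak of all 4 libraries was the same one. It covered bases 5656698 to 5657260, near the high-coordinate end, and lay within 1 kb of the neighbouring gene sif. It stood 2.65- and 3.48-fold over background in the Simba2 libraries and 2.77- and 2.18-fold in the Simba1 libraries. At a q of 0.05 or lower it was the only region of the 8 loci that stayed in all 4 libraries.

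Syp (3R, 20756729 to 20810726, 54.0 kb) encodes the late counterpart of Imp. It had 13 and 19 peaks in the Simba2 libraries, against 7 and 9 in the Simba1 libraries. Here too Simba2 had more peaks in both batches, as at 44.5% of genes of 10 kb or more (18.5% with lists of equal length). Means were 16 ± 4.24 peaks for Simba2 and 8 ± 1.41 peaks for Simba1 (SD, n = 2, exact two-sided permutation p = 0.333). Relative density was 1.43 and 1.36 in the Simba2 libraries, against 0.994 and 1.08 in the Simba1 libraries, the narrowest spread within a protein for Simba1 among the members. The best peaks of the 4 libraries lay at different places. A region 21.5 to 22.3 kb into the gene (20778232 to 20779020) had peaks of all 4, at 3.57- and 3.83-fold in the Simba2 libraries and 3.27- and 2.19-fold in the Simba1 libraries. Of 5 regions with peaks in 3 libraries, 1 lay at the nested kinase-like gene Takl1.

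br (X, 1575132 to 1664869, 89.7 kb), the Broad locus, is an ecdysone response gene that lies wholly inside the annotated span of Mur2B, so none of its 62 peaks can be assigned to br alone. It had 13 and 29 peaks in the Simba2 libraries, against 12 and 8 in the Simba1 libraries (means 21.0 ± 11.3 and 10 ± 2.83; SD, n = 2; exact two-sided permutation p = 0.333). Relative density was 0.873 and 1.26 in the Simba2 libraries, against 1.04 and 0.584 in the Simba1 libraries, and the proteins overlapped on this scale. Peaks were unevenly placed: 32 of the 62 had their summit in the low-coordinate part when the gene was cut into 3 equal parts, and in Simba1 batch 1 that part held 10 of 12. Of the 6 regions with peaks in at least 3 libraries, 5 lay within the first 30 kb and lacked only Simba1 batch 2. The other one (1618766 to 1619670) had peaks of all 4, at 2.79- and 2.92-fold in the Simba2 libraries and 2.07- and 3.05-fold in the Simba1 libraries.

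Eip93F (3R, 21949114 to 22014539, 65.4 kb), an ecdysone-induced transcription factor gene of late NSCs, showed the reverse order of the proteins. It had 3 and 5 peaks in the Simba2 libraries, against 6 and 18 in the Simba1 libraries (means 4 ± 1.41 and 12 ± 8.49; SD, n = 2; exact two-sided permutation p = 0.333). Simba2 had fewer peaks than Simba1 in both batches, which held for 3.15% of genes of 10 kb or more and for no other member in the full lists. With lists of equal length it held for 15.7% of such genes and also for mamo. Relative density was 0.274 and 0.297 in the Simba2 libraries, against 0.708 and 1.79 in the Simba1 libraries. Cutting all lists to the same length left 3 and 2 peaks for Simba2, against 6 and 17 for Simba1. At a q of 0.05 or lower they were 3 and 2 for Simba2, against 2 and 8 for Simba1, and the proteins then overlapped. Without Simba1 batch 2 the comparison rests on batch 1 alone, 3 peaks against 6. No region had peaks of all 4 libraries. The only one with 3 lay at the low-coordinate end (21948381 to 21949305), at 3.54-fold in Simba2 batch 2 and 2.84- and 3.36-fold in Simba1 batches 1 and 2.

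mamo (X, 13846116 to 13990527), with 144 kb the longest member, encodes a zinc finger factor of neurons born in an intermediate Chinmo window. It had 11 and 20 peaks in the Simba2 libraries, against 9 and 33 in the Simba1 libraries, and the proteins overlapped. Relative density was 0.463 and 0.546 in the Simba2 libraries, against 0.489 and 1.51 in the Simba1 libraries. Simba1 batch 2 was thus the only library above the arm mean at mamo, and the others were well below it (0.463 to 0.546). In batch 2 alone Simba2 had fewer peaks than Simba1 at mamo and Eip93F, as did 16.4% of genes of 10 kb or more. Of 53 merged regions at mamo 22 were in Simba1 batch 2 only, with no arm share to set beside this. The region 72.1 to 73.1 kb into the gene (13918189 to 13919216) had peaks of all 4 libraries, at 5.0- and 4.96-fold in the Simba2 libraries and 6.37- and 2.72-fold in the Simba1 libraries. These folds rested on low pileups of extended reads (5.68 and 9 in the Simba2 libraries, 8.01 and 4.39 in the Simba1 libraries). The Simba1 batch 2 peak there had a −log10 q of 0.794. A further region with peaks of all 4 lay 42.4 to 43.3 kb into the gene. In that region only the Simba2 batch 2 peak (−log10 q of 2.46) had a q of 0.05 or lower.

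svp (3R, 12258737 to 12302785, 44.0 kb), the nuclear receptor gene, had the densest peaks of the 7 long members in 2 of the 4 libraries, those of batch 1. It had 15 and 15 peaks in the Simba2 libraries, against 11 and 7 in the Simba1 libraries (means 15.0 ± 0 and 9 ± 2.83; SD, n = 2; exact two-sided permutation p = 0.333). Relative density was 2.01 and 1.30 in the Simba2 libraries, against 1.90 and 1.02 in the Simba1 libraries, above the arm mean in each. Its strongest region (12272591 to 12273417, overlapping the nested seminal fluid protein gene Sfp87B) held the best peak of 3 libraries. It stood 5.98- and 3.28-fold over background in the Simba2 libraries and 5.42- and 1.53-fold in the Simba1 libraries, where the last value had a −log10 q of 0.274. The adjoining region (12271637 to 12272374) also had peaks of all 4. Of 7 regions at svp with peaks in 3 libraries, 6 lacked Simba1 batch 2.

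**Figure D2:**
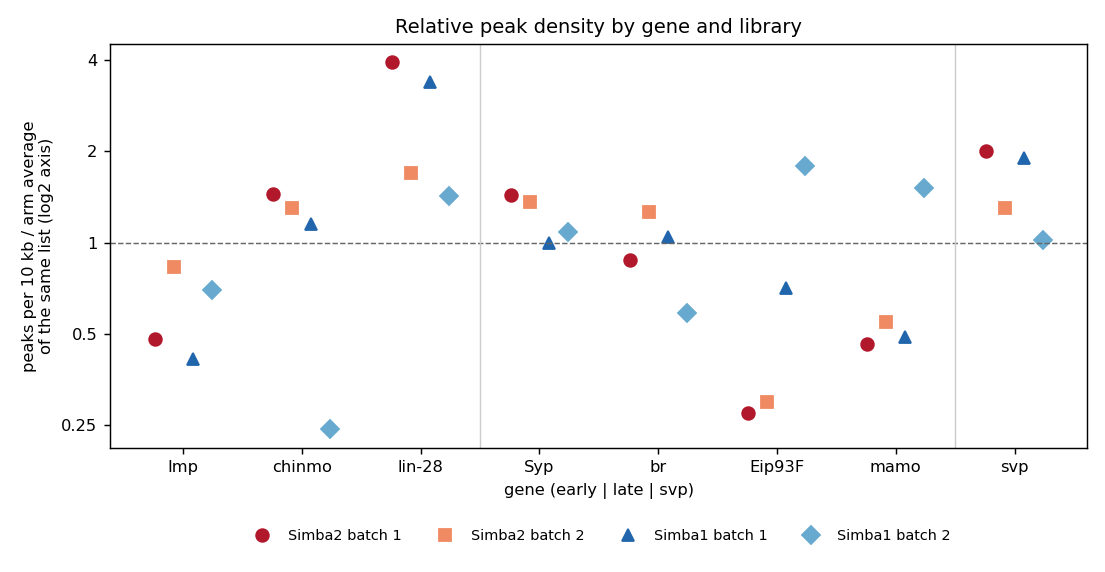
Relative peak density of each gene in each library (peaks per 10 kb of gene plus flanks, divided by the arm mean of the same list, log2 axis). Each point is 1 library; Simba1 batch 2 is the highest of the 4 at Eip93F (1.79) and mamo (1.51) and the lowest at chinmo (0.242).

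Early and late members were then compared as classes. The early genes Imp, chinmo and lin-28 together had a relative density of 1.19 and 1.14 in Simba2 batches 1 and 2, against 0.968 and 0.475 in Simba1 batches 1 and 2. The late genes Syp, br, Eip93F and mamo had 0.682 and 0.808 in the Simba2 libraries, against 0.748 and 1.26 in the Simba1 libraries. Early minus late was 0.506 and 0.329 in the Simba2 libraries, against 0.221 and -0.783 in the Simba1 libraries. Early genes thus had more peaks per length than late genes in 3 libraries and fewer in Simba1 batch 2. The mean over the 4 libraries was 0.0682 ± 0.580 (SD, n = 4), smaller than its spread, and 0.352 without Simba1 batch 2. As differences between proteins, Simba2 exceeded Simba1 by 0.286 in batch 1 and by 1.11 in batch 2 (mean 0.699; exact two-sided permutation p = 0.333, n = 2). The class values rested on a few genes. Without Eip93F and mamo, early minus late was 0.104 and -0.163 in the Simba2 libraries, against -0.0543 and -0.295 in the Simba1 libraries, and without chinmo 2 of 4 libraries stayed above 0. Members of a class are not replicates, so no test of the classes against each other was made. svp, set apart, exceeded the late genes by 1.33 and 0.495 in the Simba2 libraries, against 1.15 and -0.241 in the Simba1 libraries.

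**Figure D3:**
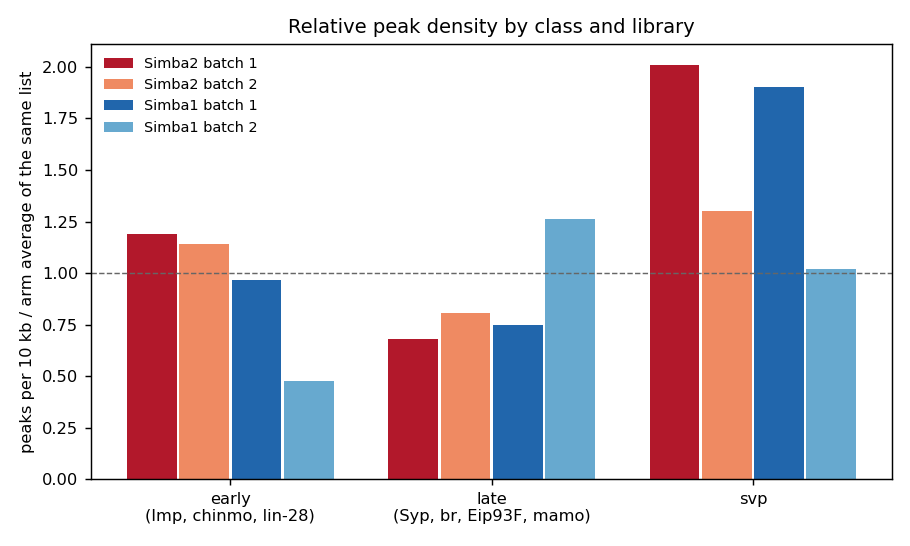
Relative peak density of the early genes, the late genes and svp in each library (bars, 1 library each; the dashed line is the arm mean of the list). Early genes lie above late genes in 3 libraries and below them in Simba1 batch 2 (0.475 against 1.26).

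Over all 8 loci Simba2 had 74 and 116 peaks, against 57 and 82 for Simba1 (means 95 ± 29.7 and 69.5 ± 17.7; SD, n = 2; exact two-sided permutation p = 0.667). The difference was 17 peaks in batch 1 and 34 peaks in batch 2. Relative to list length it was small: 0.901 and 0.917 for Simba2, against 0.895 and 1.08 for Simba1 (exact two-sided permutation p = 1.00, n = 2). Simba2 had more peaks than Simba1 in both batches at 6 members (Imp, chinmo, lin-28, Syp, br and svp), 5 of them among the 7 of 10 kb or more, where 44.5% of such genes did. The Simba2 list of each batch was the longer one, and with lists of equal length this held at 3 members (chinmo, Syp and svp), against 18.5% of genes of 10 kb or more. Members above the arm mean numbered 4, 5, 4 and 5 of 8 in Simba2 batches 1 and 2 and Simba1 batches 1 and 2. Of the 7 long ones they were 3, 4, 3 and 4, against 47.7, 48.0, 49.3 and 44.4% of genes of that length. The median relative density of the 8 members was 1.15 and 1.28 in the Simba2 libraries and 1.02 and 1.05 in the Simba1 libraries, with a lowest member at 0.242 to 0.414 and a highest at 1.70 to 3.93. Without lin-28, the short member, the median of the other 7 was 0.873 and 1.26 in the Simba2 libraries, against 0.994 and 1.02 in the Simba1 libraries. All genes of 10 kb or more had medians of 0.977 and 0.985 in the Simba2 lists and 0.988 and 0.923 in the Simba1 lists, so the 7 lay below them in Simba2 batch 1 and above them in the others.

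The next question was whether peaks lay at the same places in different libraries. Merging all peaks gave 200 regions at the 8 loci, of which 121 (60.5%) had a peak of 1 library, 43 of 2, 28 of 3 and 8 (4.00%) of all 4. Over the arms 58.3% of regions had a peak of 1 library and 4.49% of all 4. These 8 regions lay at mamo (2), svp (2), chinmo, lin-28, Syp and br (1 each). In each of them at least 1 base was common to all 4 lists, over lengths of 69 bp (chinmo) to 770 bp (mamo). Libraries of a batch share their Dam control, so this count does not come from 4 separate measurements, and 1 region was left at a q of 0.05 or lower. Of the 28 regions with peaks in 3 libraries, 17 (60.7%) lacked only Simba1 batch 2, the same share as over the arms (60.7%). Of the 121 regions with a peak of a single library 55 were of Simba2 batch 2 and 42 of Simba1 batch 2. Of these 42, mamo held 22 and Eip93F 12, while they held 53 and 24 of the 200 regions. The split of such regions by library over the arms is not given, so no excess can be read from these counts.

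**Figure D4:**
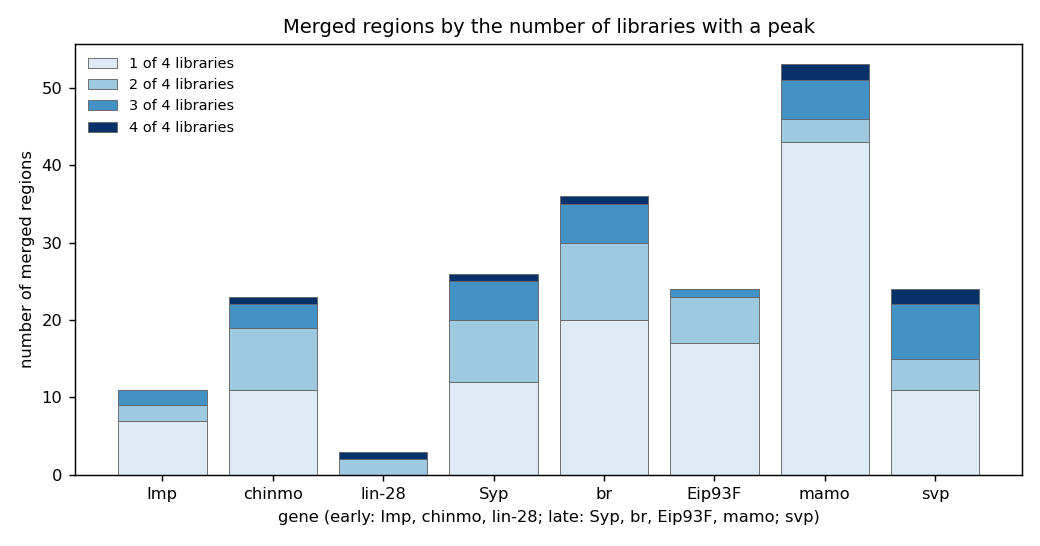
Merged regions at each gene by the number of libraries with a peak there (stacked counts). mamo has 43 of 53 regions in 1 library, while svp has 9 of 24 regions in 3 or 4 libraries.

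Between batches the Dam controls were separate. For Simba2, 41 of 74 batch 1 peaks at the 8 loci (55.4%, 95% exact Clopper-Pearson interval 43.4 to 67) overlapped a batch 2 peak, and 41 of 116 batch 2 peaks (35.3%, 26.7 to 44.8) a batch 1 peak. Over the arms these shares were 51.9 and 33.7%. For Simba1 they were 16 of 57 batch 1 peaks (28.1%, 17 to 41.5) and 17 of 82 batch 2 peaks (20.7%, 12.6 to 31.1), against 26.9 and 22.7% over the arms. Each interval covers counting error only, and each held the arm value. Across proteins and batches, 34 of 57 Simba1 batch 1 peaks (59.6%) overlapped a Simba2 batch 2 peak, against 54.5% over the arms. Simba2 batch 2 is the longest list, and in the other direction the share was 30.2%, against 27.7%. Of Simba2 batch 1 peaks 31.1% overlapped a Simba1 batch 2 peak, and 25.6% in the other direction. Over the arms these shares were 25.8 and 28.0%. Within the members, Simba2 batches shared 9 of 15 svp peaks in each direction, while none of the 3 and 5 Simba2 peaks at Eip93F overlapped. At Eip93F, batch 2 peaks of Simba1 overlapped 3 of its 6 batch 1 peaks. In the other direction 3 of the 18 Simba1 batch 2 peaks there (16.7%) were shared, against 22.7% over the arms.

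The background under the peaks, recovered from the deposited fold and pileup values, differed between the genes. It is the background value that MACS set for each peak from the Dam control, which need not equal the Dam level at the summit itself. It is given here as the median over a gene's peaks relative to the median of the whole list. At lin-28 it was 3.98 and 2.99 in the Simba2 lists and 4.75 and 3.30 in the Simba1 lists, and at svp 2.14 and 2.99 and then 2.11 and 1.75. Imp, chinmo and Syp were also above 1 in every list. At Eip93F it was 0.498 and 0.450 in the Simba2 lists and 0.344 and 0.691 in the Simba1 lists, and at mamo 0.50 and 0.417 and then 0.425 and 0.743. At br it was 1.11 and 0.597 in the Simba2 lists and 0.617 and 0.760 in the Simba1 lists. The 2 genes at which Simba1 batch 2 had the most peaks per length of any list, Eip93F and mamo, were those below 1 in all 4. In Simba1 batch 2 the background value was 0.760 at br and 0.743 at mamo, and the relative density was 0.584 at br and 1.51 at mamo. The part of this background in the peak counts was not tested, and since it is known only under listed peaks it does not describe the whole genes.

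**Figure D5:**
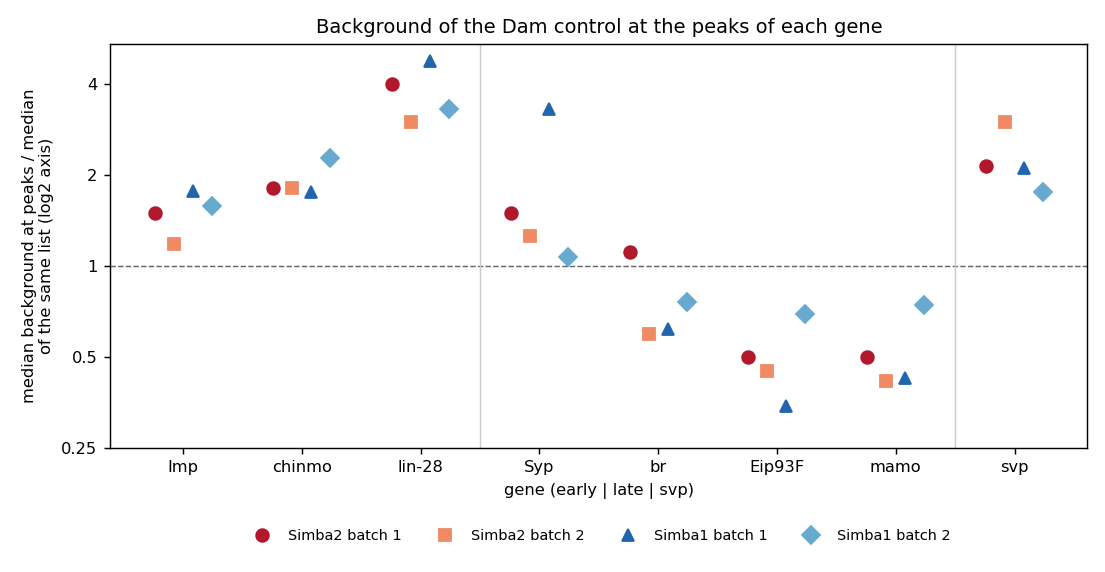
Background of the Dam control under the peaks of each gene (median over its peaks divided by the median of the same list, log2 axis; each point is 1 library). Eip93F and mamo lie below 1 in all 4 libraries (0.344 to 0.743), and Imp, chinmo, lin-28, Syp and svp above 1. br lies above 1 in Simba2 batch 1 (1.11) and below 1 in the others (0.597 to 0.760).

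For each member, the protein coding gene with the most similar peak counts over the 4 libraries was sought among genes of 0.8 to 1.2 times its span, by the Euclidean distance of log2(peaks + 1). For svp it was unc-13 (distance 0.191; 15 and 16 peaks in the Simba2 libraries, 11 and 8 in the Simba1 libraries). For br it was Cph (0.261), for Syp Pgant9 (0.339), for Imp CG13003 (0.363) and for chinmo cdi (0.515). For lin-28 it was r-l (0), whose counts were the same. mamo and Eip93F had the most distant partners, rdgA (0.712) and SK (0.901), among 50 and 152 genes of like span. SK, a potassium channel gene, had 4 and 9 peaks in the Simba2 libraries, against 5 and 14 in the Simba1 libraries. These distances rest on 4 libraries and describe likeness of counts only.

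Other genes of NSC timing gave a background of known factors. Of the 6 embryonic temporal factors all had peaks in both Simba2 batches and 5 in both Simba1 batches, where 51.3 and 28.8% of all genes did, and 4 had a peak of q 0.05 or lower in all 4 libraries (11.5% of all genes, 57.9% of those of 10 kb or more, as 3 of the 6 are). Highest among them were grh (8 and 13 peaks in the Simba2 libraries, 6 and 2 in the Simba1 libraries), nub (11 and 9, then 9 and 7) and pdm2 (5 and 6, then 3 and 2). Of the 10 temporal factors of the optic lobe, 8 had peaks in both Simba2 batches and 6 in both Simba1 batches, with hth, ey and scro highest. Of 14 genes of ecdysone signalling and the let-7 cluster, 9 had peaks in both batches of each protein, led by ftz-f1, EcR and tai. Many of these genes are long, with 5 of the 10 and 10 of the 14 of 10 kb or more. The share of genes of that length with peaks in both batches of a protein is not given here. No excess can therefore be read from the both-batch counts. A peak in all 4 libraries was found at 5 embryonic, 6 optic lobe and 9 ecdysone genes. Of all genes 24.1% had one, and of those of 10 kb or more 82.2%. The microRNA genes mir-let7, mir-125 and mir-100 had no peak within 1 kb in any library, although the primary transcript that holds them, lncRNA:let7C, had 1 and 3 peaks in the Simba2 libraries and 1 and 3 in the Simba1 libraries. The trait of Eip93F, fewer Simba2 than Simba1 peaks in both batches, was found at 0 of these 30 genes. It was found at 2 of the 5 neuronal markers, nSyb (1 and 2 Simba2 peaks, against 2 and 4 Simba1 peaks) and fne (2 and 3, against 5 and 5). Of genes of 10 kb or more 3.15% had it, and 15.7% with lists of equal length. Of these 2 markers only fne (32.9 kb) is of that length. nSyb spans 7.41 kb, and the share over all genes is not given here. In Simba1 batch 2 the relative density of the late members was 1.26, that of the embryonic genes 0.675, of the optic lobe genes 0.997, of the ecdysone genes 0.667, and of the NSC, neuronal and glial markers 0.506, 1.03 and 1.28. In the other 3 libraries it was 0.682 to 0.808 for the late members, 1.10 to 1.26 for the embryonic, 1.15 to 1.51 for the optic lobe and 0.887 to 1.02 for the ecdysone genes, and 0.841 to 1.57, 0.894 to 1.35 and 0.470 to 1.68 for the NSC, neuronal and glial markers.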

How the data were processed

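DNA from brains of 6 samples was sequenced, and the 4 deposited peak lists, 1 for each fusion library, were used. The submitters' processing notes name bcl2fastq 2.19.0.316, FastQC, Bowtie2 and the build dm6, without options. MACS 3.0.0 called peaks against the Dam library of the same batch (868080 reads in batch 1, 1321104 in batch 2), reading single ends, with duplicates removed and no q limit, per the file headers. The deposited pileup is a signal (extended reads at the summit), the deposited fold is a ratio of pileup plus 1 to the Dam background plus 1, and −log10 p and −log10 q are those of the authors' MACS run. Background was recovered from this ratio, and 99.6 to 100% of deposited −log10 p values were matched within 0.01.

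Gene spans were read from RefSeq's gene table (Release 6, as in the lists), which gives no strand, exons or start sites, so peaks are placed from the low-coordinate end. Overlap was 1 bp or more. The arms sum to 134 Mb, taken from the last gene or peak on each. Python 3.11.15, numpy 2.4.6, pandas 2.3.3, scipy 1.17.1 and matplotlib 3.10.9 were used; counting was tested on simulated lists. The members, classes and lists were chosen with earlier results of these data known. Batch pairs Simba2 and Simba1 libraries, per the labels; batch deviations correlated in 13390 bins of 10 kb (Pearson r = 0.183, across bins). Genes named were the members, 1 gene of like counts for each, up to 3 highest per list by the mean percentile of the best q, and those with no peak. The list symbol let-7-C was matched to lncRNA:let7C, and all other symbols matched as written.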

Additional observations from a re-analysis of the deposited data

Results flagged for a closer look

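The relative peak density of the early genes lay above the arm mean in both Simba2 libraries (1.19 and 1.14) and below it in both Simba1 libraries (0.968 and 0.475). Simba2 minus Simba1 was 0.441 (exact two-sided permutation p = 0.333, n = 2, the smallest p possible), 0.22 in batch 1 and 0.661 in batch 2. The value of Simba1 batch 1 was close to 1, and whether the proteins differ at these genes beyond the spread of the libraries was not shown.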

How the results depend on the processing

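The excess of Simba2 peaks at the 8 loci kept its direction at both q limits, with both other flanks and by summit, and reversed to -1.50 peaks with lists of equal length, which hold fewer Simba2 peaks. As a replicate block with batch as the pair it was 25.5 peaks (exact sign permutation p = 0.5, the smallest 2 pairs can give). Neither this test nor the main one could pass 0.05. Relative density of Simba2 minus Simba1 (-0.0810) turned positive at q of 0.001 or lower (0.101), without mamo (0.0870) and without Eip93F (0.0543), and ran from -0.167 without replicate 1 to 0.00542 without replicate 2. Early minus late turned negative as covered bases (-0.0407), with svp among the late genes (-0.00892), without mamo (-0.0150), chinmo (-0.0491) or lin-28 (-0.0153) and without Eip93F and mamo (-0.102). Leaving out a batch or a library gave -0.227 to 0.364. Leaving out members for early minus late, and single libraries, was chosen after seeing the data. Regions with peaks of all 4 libraries numbered 1 at q of 0.05 or lower, 0 at q of 0.001 or lower and 5 with lists of equal length, and 10 to 25 when 1 library was left out (25 without Simba1 batch 2). Members with a peak in all 4 numbered 3 at q of 0.001 or lower. The share of Simba1 batch 1 peaks found again in batch 2 was 10.3% at q of 0.05 or lower. Stricter q limits and equal lengths leave fewer peaks to compare, and the cause was not tested for any of these changes. Of 51 alternatives for the 3 differences, 37 kept the direction, and in 19 of these the size changed by more than 1.5 times.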
